A study of Rattus norvegicus with 15 samples.

Results

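The comparison described here is that of Odora cells after 6 h of zinc gluconate, a zinc salt, the earliest time sampled at this dose: 3 libraries of cells given 100 µM against 3 libraries of untreated control cells, whose sampling time the labels do not give. Odora is a rat cell line labelled as olfactory neuron and, per the labels, was kept undifferentiated; no genotype or transgene of it is given. RNA sequencing counted reads for 16832 genes, of which 10575 had enough counts to be tested, and the members described here are the 10514 tested genes outside 3 lists that were set aside. Those lists held the metallothioneins (2 tested genes), targets of the antioxidant factor Nrf2 (26) and genes of the amino acid stress factor ATF4 (33). Targets of Nrf2 and ATF4 that the lists lack remain among the members. The series holds 9 further libraries, of 100 µM for 12 or 24 h and 200 µM for 6 h, which serve here to estimate the spread between replicates and, for 12 h, as a later time. The labels number the replicates 1 to 3 and do not say whether each came from its own culture, so the error behind the p-values is that between libraries and may be technical.

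Zinc is a cofactor of many enzymes and transcription factors, and cells keep its free level very low. When it rises, the zinc-sensing factor Mtf1 binds short metal response elements and switches on metallothioneins, which hold zinc, and the exporter Slc30a1, which pumps it out. An excess of zinc can also react with the thiols of proteins, and cells meet damaged proteins with chaperones, whose genes are driven by heat shock factor 1, and with the ubiquitin and proteasome system.

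Total counts were 35.2, 10.3 and 12.2 M (megacounts) in the zinc-treated libraries and 23.7, 28.0 and 25.9 M in the controls, and the detection floor, set at 3 counts, was 0.0853 to 0.290 CPM (counts per megacount, with library totals scaled by TMM). The floor covers counting error only. Transcripts of heart muscle set 4 of these 6 libraries apart: the summed level of 15 heart genes was 70.1, 4.88 and 5.49 CPM in zinc-treated cells, against 137, 39.3 and 138 CPM in controls. The fits were therefore repeated with a term for those 4 libraries, the heart-transcript term, and values that it or a left-out library moves are given beside the results. Since all 3 controls carry the term, that fit sets zinc replicate 1 alone against them, with its spread taken from the other groups. A call lost with it is thus a call lost with 1 zinc library, and the part of the heart transcripts was not tested. Of 22 genes listed for olfactory neurons 6 were at 0 in all 6 libraries, and the list summed to 189, 198 and 199 CPM in zinc-treated cells and 174, 172 and 170.2 CPM in controls. Among the genes of mature neurons, Omp, the olfactory marker protein, was at 0.0778, 0.348 and 0.451 CPM in zinc-treated cells and 0.188, 0.349 and 0.346 CPM in controls, and Cnga2 and Ncam2 were at 0. Other genes of the list were present. Adcy3 had 23.8, 27.3 and 23.8 CPM in zinc-treated cells and 20.9, 21.5 and 21.1 CPM in controls. Cnga4 had 3.27, 3.92 and 3.68 against 2.71, 2.12 and 2.04 CPM, and Gng13 1.32, 1.92 and 1.20 against 0.980, 1.33 and 1.04 CPM. Ncam1 made up most of the sum, with 98.5, 101 and 105 CPM in zinc-treated cells and 88.5, 86.0 and 87.1 CPM in controls. Each library labelled 24 h lay closer to 1 library labelled 200 µM (chi-square per degree of freedom of 1.36 to 1.42) than to any of its own label (3.50 to 18.4). These 6 libraries enter only through the shared spread, and without the 24 h label 1831 genes outside the set-aside lists were called and without the 200 µM label 1777, against 1766. Fibroblast genes, Col1a1 among them, had summed levels of 7240, 9034 and 8038 CPM after zinc and 7162, 9572 and 8110 CPM in controls. Col1a1, Col3a1, Col1a2 and Thy1 were the highest of that list. Others were low, with Dcn at 0.830, 1.31 and 0.601 CPM after zinc and 1.92, 3.49 and 1.11 CPM in controls. Postn had 1.04, 1.83 and 1.05 CPM after zinc and 1.66, 2.38 and 1.87 CPM in controls, and Fap was at or near 0.

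Zinc changed many genes, most of them by little. Of the 10514 members, 1766 passed edgeR's quasi-likelihood test at an adjusted p under 0.05, 940 higher and 826 lower after zinc. That is 16.8% of those tested, 8.94% higher and 7.86% lower, and over all genes tested 17.2% were called, 9.1% higher and 8.1% lower. The median log2 ratio of the members was 0.002, and 90% of them lay between -0.45 and 0.45. Among the called genes 1219 changed by less than 0.5 on the log2 scale, 426 by 0.5 to 1 and 121 by at least 1. Large changes leaned downward, with 43 higher and 78 lower by at least 1, which together are 1.15% of the members. In 1699 of the 1766 called genes the 3 zinc libraries did not overlap the 3 controls in CPM, against 35.5% of all genes tested. Genes named below for their ratio or their change in CPM were taken from those without overlap. Their lack of overlap is thus a condition and not a result. In bulk RNA, fewer cells that express a gene and less of its RNA per cell cannot be told apart.

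**Figure D1:**
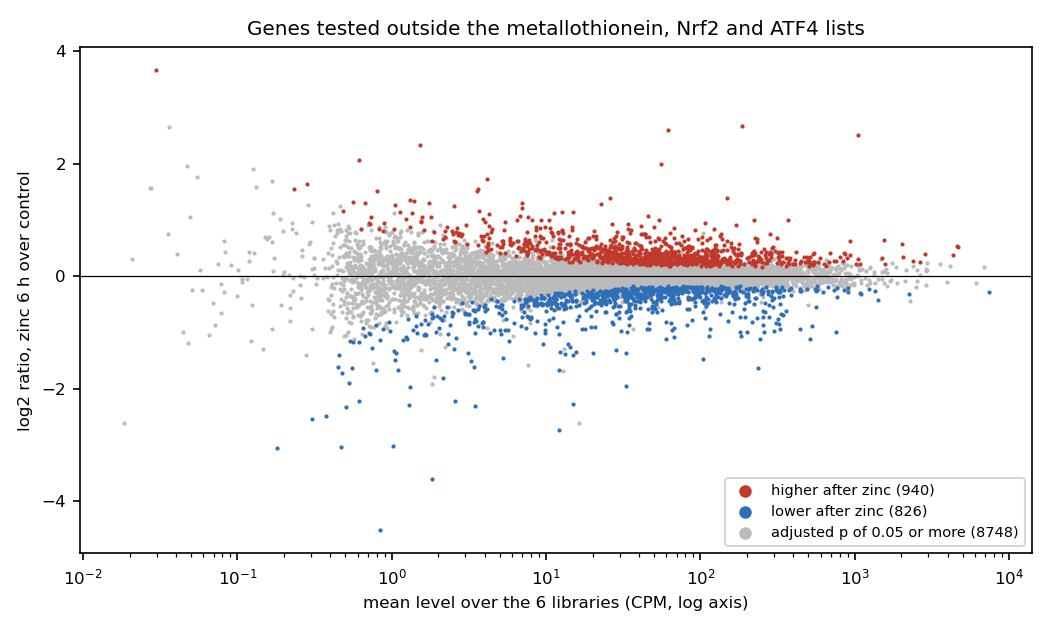
Each point is 1 of the 10514 genes, placed by its mean level over the 6 libraries (CPM, log axis) and its log2 ratio of zinc at 6 h over control; red genes are called higher (940) and blue genes lower (826) at an adjusted p under 0.05. Called genes among the 2629 members with the highest CPM had a median absolute log2 ratio of 0.31, against 0.74 among the 2629 with the lowest.

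Calls were more frequent, and their ratios smaller, among genes with high counts. Of the 2629 members with the lowest levels 12.3% were called, and of the 2629 with the highest levels 20.01%, while the median absolute log2 ratio of called genes was 0.74 at the low end and 0.31 at the high end. A set of 542 genes, 311 higher and 231 lower, was called in each of 21 other fits, and 787 were called whichever of the 6 libraries was left out. The number of calls was 978 without control replicate 1, 1155 without zinc replicate 1, 1160 without zinc replicate 3, and a fit that carried the heart-transcript term called 885. With libraries scaled by their totals alone, 758 genes were higher and 1038 lower, so the split between directions depends on the scaling.

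**Figure D2:**
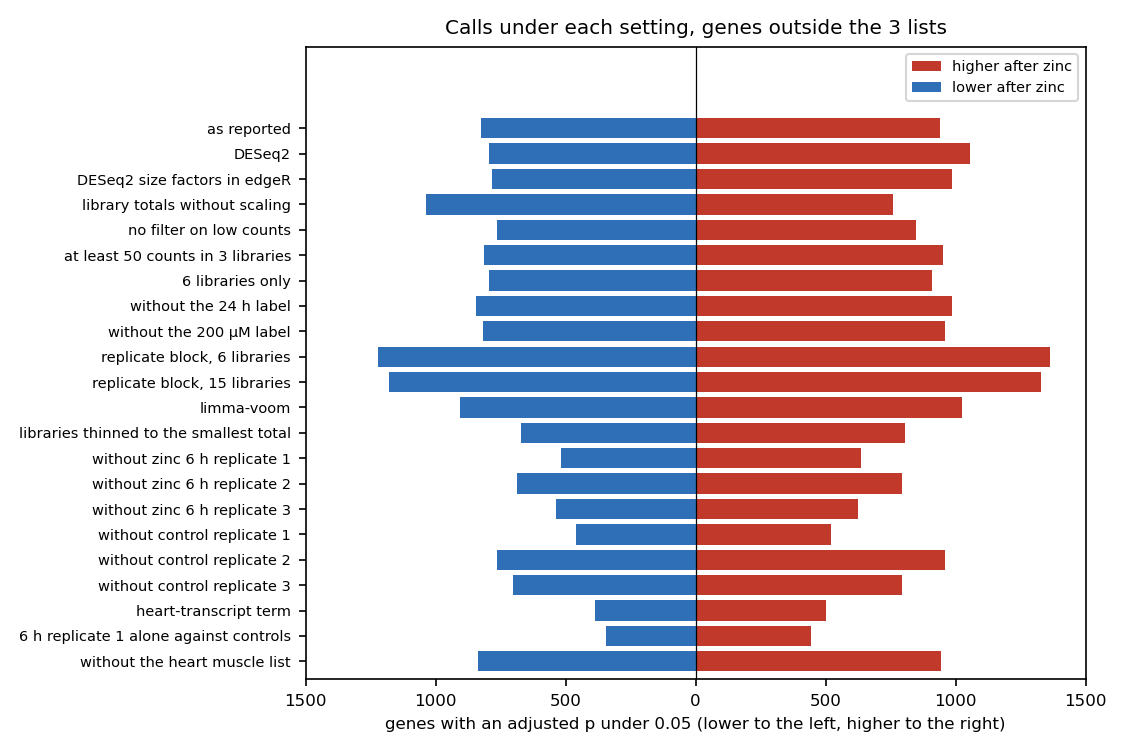
Bars give the number of members called higher (right, red) and lower (left, blue) after zinc in the fit as reported and in each of 21 other settings. Without control replicate 1 the fit called 519 higher and 459 lower, and library totals without scaling moved calls from the right to the left.

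The zinc exporter gene Slc30a1 rose, and so, by less, did the transporter gene Slc39a13. Slc30a1, the exporter of the plasma membrane, had 98.9, 80.3 and 86.7 CPM in zinc-treated cells, against 22.2, 20.9 and 23.9 CPM in controls (log2 2.0 ± 0.09, adjusted p = 1.58e-11). Slc39a13, a transporter that moves zinc out of the Golgi and secretory vesicles, had 141, 141 and 154 CPM in zinc-treated cells, against 101, 115 and 119 CPM in controls (log2 0.38 ± 0.07, adjusted p = 5.48e-04). These were the 2 called genes among 24 tested zinc and copper transport genes, and none was called lower. The median log2 ratio of that list was 0.01, and its higher share of 8.33% lay near the 9.1% over all genes tested. For scale, the markers of the 3 lists set aside were Mt1, a metallothionein, at 4.98 ± 0.17, Hmox1, haem oxygenase 1 and an Nrf2 target, at 4.34 ± 0.12, and Asns, asparagine synthetase and an ATF4 target, at -1.94 ± 0.10.

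The 250 bases before the start of Slc30a1 are shown because they hold the letters of the element that Mtf1 binds. They stand on the plus strand of RefSeq build GRCr8 at chr13:106021769-106022018 and are written 5′ to 3′, with capitals at 2 matches to the core of the metal response element, TGCACNC or TGCGCNC, here on the reverse strand.
Slc30a1: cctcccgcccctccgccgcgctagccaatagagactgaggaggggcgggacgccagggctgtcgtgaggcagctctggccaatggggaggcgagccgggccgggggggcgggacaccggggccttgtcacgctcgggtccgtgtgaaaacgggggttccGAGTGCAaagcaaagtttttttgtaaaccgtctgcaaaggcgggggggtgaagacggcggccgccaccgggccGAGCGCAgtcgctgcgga
Over windows of 250 bases before to 50 after the start, this core was found in 42.7% of 763 higher genes, 33.8% of 671 lower genes and 36.8% of all 8568 members with a RefSeq promoter. Among genes changed by at least 1 on the log2 scale it was found in 24.2% of 33 higher and 35.6% of 59 lower genes.

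Reductases of aldehydes and ketones showed the largest ratios among called genes that averaged 20 counts or more. Akr1b10, Akr1b7 and Akr1b8 encode closely related aldo-keto reductases, which turn aldehydes, lipid-derived ones among them, into alcohols. Akr1b10 had 343, 289 and 329 CPM in zinc-treated cells, against 51.1, 51.2 and 49.96 CPM in controls (log2 2.66 ± 0.11, adjusted p = 3.29e-11), a 6.32-fold rise. Akr1b7 had 108, 97.9 and 111 CPM in zinc-treated cells, against 16.8, 17.0 and 18.8 CPM in controls (log2 2.59 ± 0.12, adjusted p = 9.54e-11). Akr1b8 had 1943, 1567 and 1852 CPM in zinc-treated cells, against 325, 306 and 315 CPM in controls (log2 2.50 ± 0.11, adjusted p = 5.68e-11). Reads may be shared between such close paralogs. Of the other carbonyl enzymes Akr1b1, aldose reductase, rose by 1.01 ± 0.08 on the log2 scale, Ptgr1, which acts on leukotriene B4 and reduces reactive enals, by 0.99 ± 0.07 and the carbonyl reductase Cbr3 by 0.70 ± 0.10. The list of 25 tested carbonyl and aldehyde enzymes thus had 6 higher genes. Its 3 lower genes included the fatty aldehyde dehydrogenase Aldh3a2 (-0.43 ± 0.06), and the lower count was 1 without zinc replicate 3 or with the heart-transcript term. The list's median log2 ratio was -0.03. The Akr1b genes and Ptgr1 were not in the Nrf2 list set aside, which need not hold every Nrf2 target. Whether Nrf2 accounts for their rise was not tested.

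The other genes with the highest ratios mostly had low counts. Pmepa1, a membrane protein that dampens TGF-beta signalling, had 4.18, 1.57 and 1.65 CPM in zinc-treated cells, against 0.829, 0.380 and 0.554 CPM in controls (log2 2.32 ± 0.39, adjusted p = 5.97e-04), and zinc replicate 1 stood well above the rest; without it the log2 ratio was 1.47 ± 0.39. Ak4, a mitochondrial adenylate kinase, had 5.58, 5.58 and 4.96 CPM in zinc-treated cells, against 1.62, 1.62 and 2.25 CPM in controls (log2 1.56 ± 0.19, adjusted p = 1.70e-05). Cacna2d4, an auxiliary subunit of calcium channels, had 4.93, 4.01 and 6.84 CPM in zinc-treated cells, against 1.32, 1.43 and 2.74 CPM in controls (log2 1.51 ± 0.24, adjusted p = 3.11e-04). Smad9, a transducer of bone morphogenetic protein (BMP) signals, rose by 1.36 ± 0.28 on the log2 scale (adjusted p = 0.00228). Espnl, a protein related to actin-bundling espin, rose by 1.51 ± 0.33 (adjusted p = 0.00381), a call that ended without zinc replicate 1 (1.29 ± 0.43, adjusted p = 0.0642).

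The deepest falls reached genes of several functions. Inhbe, the subunit of activin E, had 0.285, 0.348 and 0.1504 CPM in zinc-treated cells, against 5.16, 2.79 and 2.18 CPM in controls (log2 -3.61 ± 0.42, adjusted p = 1.12e-05). Angptl8, a secreted regulator of lipoprotein lipase, had 0.259, 0.261 and 0.0752 CPM in zinc-treated cells, against 2.45, 1.36 and 1.70 CPM in controls (log2 -3.02 ± 0.40, adjusted p = 3.75e-05). The zinc-treated levels of both lay near the detection floor. Extl1, a glycosyltransferase of heparan sulphate, had 4.88, 6.27 and 4.29 CPM in zinc-treated cells, against 31.3, 23.9 and 18.8 CPM in controls (log2 -2.28 ± 0.18, adjusted p = 7.85e-08). Otub2, a deubiquitinating enzyme, had 13.02, 13.7 and 13.8 CPM in zinc-treated cells, against 63.9, 43.8 and 48.4 CPM in controls (log2 -1.95 ± 0.18, adjusted p = 1.33e-06). Pck2, the mitochondrial phosphoenolpyruvate carboxykinase, had 100.4, 123 and 124 CPM in zinc-treated cells, against 411, 347 and 313 CPM in controls (log2 -1.63 ± 0.09, adjusted p = 6.62e-10), a 3.10-fold fall.

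Further low ratios were found in Nherf4, a scaffold with PDZ domains (-1.81 ± 0.27, adjusted p = 1.26e-04), and Arrdc4, an arrestin-domain protein that lowers glucose uptake (-1.67 ± 0.31, adjusted p = 9.98e-04). Eln, the matrix protein elastin, fell by 1.68 ± 0.35 on the log2 scale (adjusted p = 0.00271), but not without zinc replicate 1 (-1.13 ± 0.40, adjusted p = 0.0783). Acta1 and Cox6a2, the skeletal muscle actin and the muscle form of a cytochrome oxidase subunit, also fell, and their levels moved with the heart transcripts among the controls. Cox6a2 had 0.519, 0.348 and 0.301 CPM in zinc-treated cells, against 3.09, 1.11 and 2.36 CPM in controls (log2 -2.30 ± 0.38, adjusted p = 3.56e-04), and with the heart-transcript term its log2 ratio was -2.04 ± 0.48, adjusted p = 0.0127. Acta1 had 1.17, 0.436 and 0.752 CPM in zinc-treated cells, against 6.63, 1.39 and 4.95 CPM in controls (log2 -2.23 ± 0.47, adjusted p = 0.00374), and that term took the call away (-1.87 ± 0.58, adjusted p = 0.0552).

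**Figure D3:**
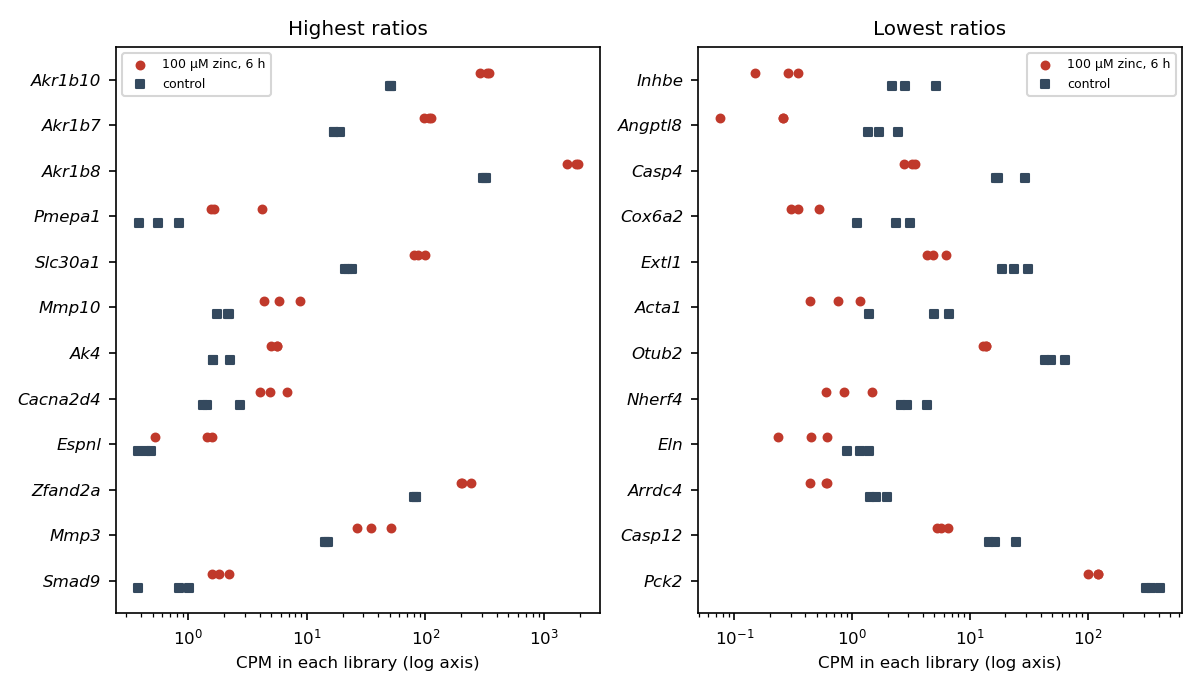
Each gene's CPM (log axis) in the 3 zinc-treated libraries (red circles) and the 3 controls (dark squares), for the 12 highest ratios (left) and the 12 lowest (right) named by the rule. The 3 Akr1b genes, Slc30a1 and Zfand2a form tight, well separated groups, whereas Pmepa1, Acta1 and Cox6a2 spread widely within a group.

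On the scale of CPM, which grows with transcript length, the 3 largest gains among genes named by the rule were those of Hspa8, Gapdh and Akr1b8, described above, and the 3 largest losses those of Eef1a1, Pabpc1 and Eprs1. Hspa8, the constitutive cytosolic Hsp70 chaperone, gained most, with 5718, 5089 and 5592 CPM in zinc-treated cells, against 3634, 3887 and 3782 CPM in controls (log2 0.54 ± 0.06, adjusted p = 9.86e-06). Gapdh, a glycolytic enzyme often used as a loading standard, had 5334, 5218 and 5854 CPM in zinc-treated cells, against 3701, 3614 and 4122 CPM in controls (log2 0.52 ± 0.09, adjusted p = 3.25e-04). Flna, the actin crosslinker filamin A, had 2330, 2061 and 2437 CPM in zinc-treated cells, against 1749, 1761 and 1910 CPM in controls (log2 0.33 ± 0.07, adjusted p = 0.00296). Ahnak, a giant scaffold protein of the cell cortex, gained 1128 CPM on average (log2 0.38 ± 0.11, adjusted p = 0.0255), but its call ended without zinc replicate 1 (0.28 ± 0.12, adjusted p = 0.134), control replicate 1 (0.28 ± 0.11, adjusted p = 0.140) or control replicate 3 (0.39 ± 0.13, adjusted p = 0.0529).

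Eef1a1, the factor that brings aminoacylated transfer RNA to the ribosome, lost most, with 6206, 6700 and 7024 CPM in zinc-treated cells, against 8636, 7854 and 7889 CPM in controls (log2 -0.29 ± 0.07, adjusted p = 0.00560). Pabpc1, which binds the poly(A) tails of mRNA, had 1915, 1949 and 2135 CPM in zinc-treated cells, against 2750, 2384 and 2382 CPM in controls (log2 -0.33 ± 0.07, adjusted p = 0.00291). Both falls were small as ratios. H3f3b, which encodes the replication-independent histone H3.3, fell by 0.43 ± 0.08 on the log2 scale, Hspa9, the mitochondrial Hsp70, by 0.89 ± 0.11 and Ccdc80, a secreted matrix protein, by 1.11 ± 0.13. Ccdc80 had 277, 319 and 382 CPM in zinc-treated cells, against 870.0, 579 and 659 CPM in controls (adjusted p = 1.45e-05). The ribosomal protein gene Rpl3 fell by 0.26 ± 0.07, but not without zinc replicate 1 (-0.23 ± 0.08, adjusted p = 0.0631) or control replicate 1 (-0.22 ± 0.07, adjusted p = 0.0706). Genes such as Gapdh, Eef1a1 and Rpl3 have many processed copies in the genome, and how reads that match several genes were counted is not given in the sources used here.

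Part of the cytosolic chaperones of the heat shock response rose, and in the fit as reported none was called lower. Of 31 tested chaperone genes 9 rose and 0 fell, and the median log2 ratio of the list was 0.09. Hsph1, a nucleotide exchange factor of Hsp70, had 94.6, 77.4 and 88.8 CPM in zinc-treated cells, against 50.1, 45.7 and 49.7 CPM in controls (log2 0.85 ± 0.10, adjusted p = 1.70e-05). Hspb8, a small heat shock protein, had 312, 255 and 291 CPM in zinc-treated cells, against 181, 168 and 197 CPM in controls (log2 0.65 ± 0.08, adjusted p = 1.72e-05). Hspa1a, the inducible Hsp70, had 14.9, 14.8 and 12.3 CPM in zinc-treated cells, against 5.09, 8.78 and 7.07 CPM in controls (log2 1.0 ± 0.15, adjusted p = 2.67e-04), at a low level and with a near-identical gene copy. Among the J-domain cochaperones, which load clients onto Hsp70, Dnaja4 rose by 0.56 ± 0.09, Dnajb1 by 0.42 ± 0.07 and Dnaja1 by 0.40 ± 0.07 on the log2 scale. Bag3, which links Hsp70 to autophagy, rose by 0.44 ± 0.10, a call lost with the heart-transcript term (0.30 ± 0.14, adjusted p = 0.199). Without control replicate 2 or with library totals alone, 3 chaperone genes were called lower, and without zinc replicate 1 the lower count was 1.

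Short stretches before the starts of 6 of these genes hold the letters that heat shock factor 1 recognises in inverted repeats. Each is 60 bases long, 5′ to 3′ on the gene's strand in RefSeq build GRCr8, with capitals at GAANNTTC or TTCNNGAA. They lie at chr8:50080438-50080497, chr12:10427308-10427367, chr12:45837248-45837307, chr19:41431142-41431201 (minus strand), chr5:60638197-60638256 and chr1:192533302-192533361, in the order printed.
Hspa8: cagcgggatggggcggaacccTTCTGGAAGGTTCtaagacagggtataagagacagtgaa
Hsph1: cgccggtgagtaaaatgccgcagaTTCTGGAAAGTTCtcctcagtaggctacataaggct
Hspb8: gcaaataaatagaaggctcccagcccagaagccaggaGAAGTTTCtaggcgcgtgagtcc
Dnajb1: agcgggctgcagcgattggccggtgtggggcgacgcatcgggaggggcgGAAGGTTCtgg
Dnaja1: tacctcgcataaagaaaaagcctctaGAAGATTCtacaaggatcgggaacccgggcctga
Bag3: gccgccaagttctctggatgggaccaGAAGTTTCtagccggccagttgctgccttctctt
In Hspa8 and Hsph1 a pair of matches overlap into a longer repeat. In windows of 250 bases before to 50 after the start, 6 of the 8 called chaperone genes with a RefSeq promoter held a match. Hspa1a was not among them, and chaperone genes that were not called are not in that count. The share was 11.2% among the 8568 members, 11.01% among higher genes and 14.3% among lower genes. Whether heat shock factor 1 accounts for these rises was not tested.

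Genes that handle ubiquitinated proteins included one large rise. Zfand2a, a zinc finger protein that binds the proteasome when arsenite or heat damages proteins, had 244, 199 and 204 CPM in zinc-treated cells, against 79.9, 83.2 and 82.7 CPM in controls (log2 1.40 ± 0.10, adjusted p = 4.13e-08), a 2.63-fold rise. Of 18 tested genes of the ubiquitin and ZFAND list 4 rose and 0 fell. The proteasome subunit gene Psmd3 rose by 0.44 ± 0.07 on the log2 scale (adjusted p = 1.78e-04) and Nploc4, a cofactor of the segregase Vcp, by 0.34 ± 0.06 (adjusted p = 5.58e-04).

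Genes of glycolysis rose along nearly the whole pathway. Of 21 tested genes of glucose uptake and glycolysis 15 rose and 1 fell, and the list's median log2 ratio was 0.40. Of the glucose transporter genes, Slc2a1 had 183, 153 and 176 CPM in zinc-treated cells, against 103, 99.4 and 102 CPM in controls (log2 0.75 ± 0.08, adjusted p = 4.57e-06), and Slc2a3 had 165, 130.5 and 177 CPM in zinc-treated cells, against 76.3, 87.2 and 100.0 CPM in controls (log2 0.84 ± 0.11, adjusted p = 3.85e-05). Along the pathway Gpi, the isomerase of glucose 6-phosphate, rose by 0.67 ± 0.09, the phosphofructokinase Pfkl by 0.67 ± 0.08, Eno1, an enolase, by 0.58 ± 0.08 and Ldha, a lactate dehydrogenase subunit, by 0.65 ± 0.09 on the log2 scale. Of the lactate carriers Slc16a3, which exports lactate from glycolytic cells, rose by 0.87 ± 0.15, and Slc16a1 fell by 0.36 ± 0.08, a call lost with the heart-transcript term (-0.24 ± 0.11, adjusted p = 0.189). Pkm, a pyruvate kinase, and Aldoa, an aldolase, rose by 0.40 ± 0.07 and 0.42 ± 0.08, and both calls were lost with that term too (0.34 ± 0.10, adjusted p = 0.0521 for Pkm, 0.34 ± 0.11, adjusted p = 0.0729 for Aldoa). With 1 library left out the higher count was 13 to 15, and it was 11 with the heart-transcript term.

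Targets of the hypoxia-inducible factors that passed the test were higher, with the exception of Vegfa. Of 16 tested hypoxia response genes 7 rose and 1 fell, and the median log2 ratio was 0.43. Car9, a carbonic anhydrase of the cell surface, had 62.2, 54.4 and 70.4 CPM in zinc-treated cells, against 29.0, 27.6 and 32.1 CPM in controls (log2 1.08 ± 0.11, adjusted p = 3.23e-06). P4ha2, a collagen prolyl hydroxylase, had 69.0, 70.3 and 71.9 CPM in zinc-treated cells, against 44.2, 47.5 and 49.1 CPM in controls (log2 0.58 ± 0.06, adjusted p = 2.31e-06). Pdk1, a kinase that turns off pyruvate dehydrogenase, rose by 0.67 ± 0.09, the mitochondrial protein gene Higd1a by 0.66 ± 0.09, the mitophagy receptor gene Bnip3 by 0.51 ± 0.09 and the ankyrin repeat gene Ankrd37 by 1.33 ± 0.25 on the log2 scale. Vegfa, the angiogenic growth factor, had 131, 126 and 119.7 CPM in zinc-treated cells, against 242, 175 and 169.5 CPM in controls (log2 -0.64 ± 0.10, adjusted p = 2.16e-04). It was the one list member to fall.

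The hypoxia-inducible factors bind the core ACGTG, capitalised here in 60 bases before the starts of 4 of these genes (GRCr8, on the gene's strand, at chr10:38743825-38743884, chr8:130401049-130401108 on the minus strand, chr1:203155029-203155088 on the minus strand and chr16:53001447-53001506).
P4ha2: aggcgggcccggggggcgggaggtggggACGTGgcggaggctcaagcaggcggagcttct
Higd1a: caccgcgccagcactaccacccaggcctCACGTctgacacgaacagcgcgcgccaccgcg
Bnip3: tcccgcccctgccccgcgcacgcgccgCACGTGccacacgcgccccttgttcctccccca
Ankrd37: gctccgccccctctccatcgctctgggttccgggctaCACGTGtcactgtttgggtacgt
A match on either strand stood in the windows of 6 of the 8 called hypoxia genes and in 26.2% of the 8568 members, with 25.0% of higher genes and 29.2% of lower genes. It also stood in 8 of the 13 called synthetase genes described next, which fell. Neither count holds list genes that were not called. Whether the hypoxia-inducible factors account for the rises was not tested.

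The cytosolic aminoacyl-transfer RNA synthetases, which charge each transfer RNA with its amino acid, fell in most cases. Of 19 tested genes 14 fell and 0 rose, and the list's median log2 ratio was -0.82, the lowest of the lists described here. Cars1, for cysteine, had 128, 137 and 135 CPM in zinc-treated cells, against 282, 259 and 258 CPM in controls (log2 -1.0 ± 0.06, adjusted p = 6.62e-10). Eprs1, for glutamate and proline, had 518, 493 and 519 CPM in zinc-treated cells, against 1191, 905 and 938 CPM in controls (log2 -0.99 ± 0.11, adjusted p = 7.48e-06), and Mars1, for methionine, had 289, 295 and 322 CPM in zinc-treated cells, against 650.2, 538 and 542 CPM in controls (log2 -0.93 ± 0.08, adjusted p = 9.57e-08). In these genes every zinc library was far under every control. Lars1 fell by 0.99 ± 0.08, Sars1 by 0.97 ± 0.10, Nars1 by 0.95 ± 0.09, Wars1 by 0.87 ± 0.10, Yars1 by 0.86 ± 0.08 and Gars1 by 0.84 ± 0.07 on the log2 scale, each encoding the enzyme for 1 amino acid. Smaller falls were those of Aars1 (-0.68 ± 0.06) and Farsb (-0.59 ± 0.09), and Vars1 (-0.28 ± 0.07) lost its call without zinc replicate 1 (-0.26 ± 0.09, adjusted p = 0.0608), zinc replicate 2 (-0.24 ± 0.08, adjusted p = 0.0615) or control replicate 1 (-0.25 ± 0.08, adjusted p = 0.0698), and it was not called with the heart-transcript term either (-0.32 ± 0.11, adjusted p = 0.0754). Kars1, for lysine, at 0.02 ± 0.07 (adjusted p = 0.867), was among the 5 that did not pass. With 1 library left out the lower count was 13 to 15. Many of these genes are known targets of ATF4, so the ATF4 list set aside does not hold all of its targets. Inhbe, Pck2 and Mthfd1l, which also fell, were outside that list too. Whether ATF4 accounts for these falls was not tested.

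The 60-base stretches that follow hold the letters of the amino acid response element, which ATF4 binds, before 5 of these starts, with capitals at TGATGNAA or its reverse complement (GRCr8, on the gene's strand, at chr7:65023754-65023813 minus, chr19:55908344-55908403 plus, chr17:15193653-15193712 minus, chr18:60275783-60275842 minus and chr2:62114803-62114862 minus).
Mars1: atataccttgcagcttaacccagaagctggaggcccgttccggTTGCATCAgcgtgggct
Aars1: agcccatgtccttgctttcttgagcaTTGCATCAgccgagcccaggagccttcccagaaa
Iars1: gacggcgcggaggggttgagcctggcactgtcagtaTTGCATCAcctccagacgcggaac
Nars1: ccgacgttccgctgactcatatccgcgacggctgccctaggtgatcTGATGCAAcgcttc
Tars1: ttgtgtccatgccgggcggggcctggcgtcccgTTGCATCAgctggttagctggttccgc
In windows of 250 bases before to 50 after the start a match was present in 7 of the 13 called synthetase genes with a RefSeq promoter. Synthetase genes that were not called are not in that count. The share was 5.66% among 671 lower genes, 1.97% among 763 higher genes and 1.96% among all 8568 members.

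**Figure D4:**
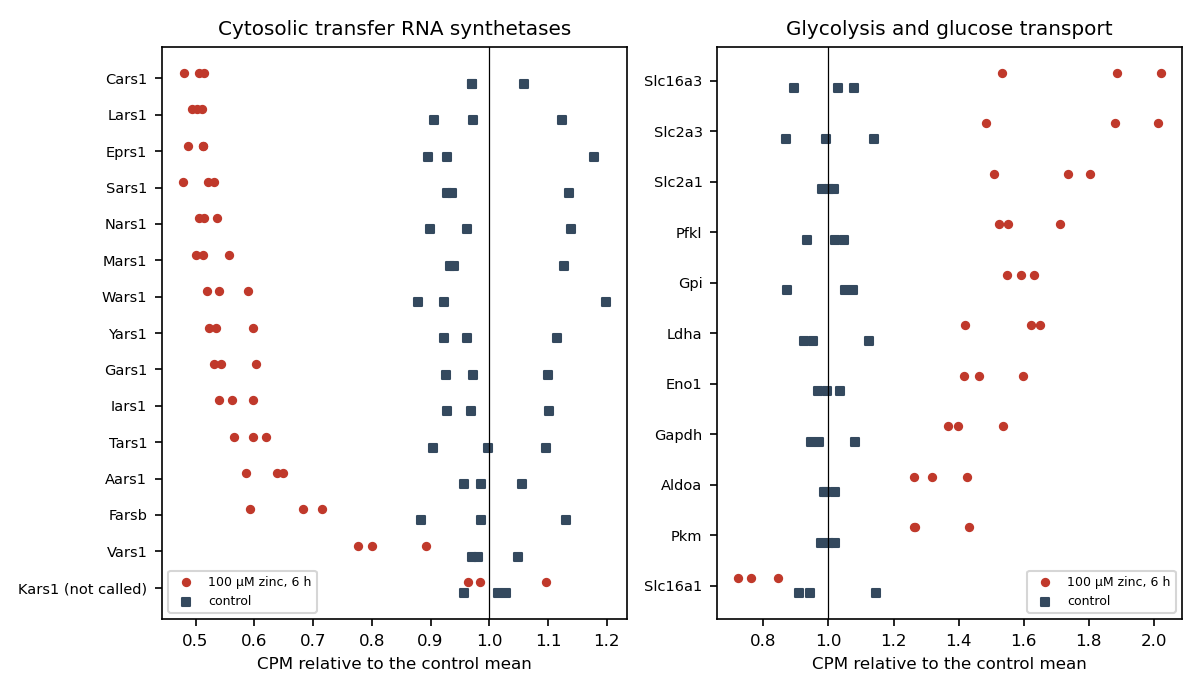
CPM of each gene relative to the mean of its 3 controls, in zinc-treated libraries (red circles) and controls (dark squares), for transfer RNA synthetases (left) and glycolysis (right); the genes are those named in the text, and those that did not pass the test are marked. For most synthetases the zinc libraries lie clearly under every control, and for most glycolysis genes they lie above, with Slc16a1 below.

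Some genes of cholesterol metabolism rose, and none fell. Of 25 tested targets of the sterol-sensing factor SREBP2 9 rose and 0 fell, with a median log2 ratio of 0.23. Hsd17b7, which reduces a ketone in the last part of the pathway, had 20.5, 21.0 and 20.1 CPM in zinc-treated cells, against 6.63, 10.2 and 11.2 CPM in controls (log2 1.13 ± 0.13, adjusted p = 7.33e-06). Srebf1, which encodes the related factor that drives fatty acid synthesis, had 191, 215 and 195 CPM in zinc-treated cells, against 322, 319.6 and 279.5 CPM in controls (log2 -0.62 ± 0.09, adjusted p = 1.21e-04).

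Genes of the mitochondrial trifunctional protein, which oxidises fatty acids, fell. Of 27 tested genes of fatty acid and glycerolipid synthesis 2 were higher and 3 lower, Srebf1 and Angptl8 among the lower ones, and without zinc replicate 1, 2 or 3 or control replicate 1 or 2 the higher count was 0. Of 27 tested genes of fatty acid oxidation 4 fell and 1 rose. Hadhb and Hadha encode both subunits of the mitochondrial trifunctional protein. Hadhb had 256, 228 and 228 CPM in zinc-treated cells, against 438, 389 and 378 CPM in controls (log2 -0.76 ± 0.08, adjusted p = 3.09e-06), and Hadha fell by 0.49 ± 0.08 (adjusted p = 1.78e-04). The acyl-CoA thioesterase genes Acot1 and Acot2 were at -0.77 ± 0.17 and -0.86 ± 0.17 on the log2 scale, and without control replicate 1, the highest library of both, at -0.51 ± 0.12 and -0.54 ± 0.09.

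The growth factor genes Tgfa, Nrg1, Ereg and Areg rose. Tgfa, transforming growth factor alpha, had 258, 185 and 224 CPM in zinc-treated cells, against 121, 109 and 128 CPM in controls (log2 0.90 ± 0.11, adjusted p = 1.50e-05). Nrg1, neuregulin 1, had 11.2, 9.93 and 12.2 CPM in zinc-treated cells, against 7.69, 5.07 and 5.54 CPM in controls (log2 0.87 ± 0.13, adjusted p = 1.15e-04). Ereg, epiregulin, had 46.8, 35.3 and 48.8 CPM in zinc-treated cells, against 27.9, 19.6 and 26.3 CPM in controls (log2 0.84 ± 0.15, adjusted p = 9.69e-04) and Areg, amphiregulin, 23.4, 19.1 and 18.2 CPM in zinc-treated cells, against 13.5, 15.3 and 14.6 CPM in controls (log2 0.51 ± 0.09, adjusted p = 5.90e-04); Ereg, Areg and Hbegf were picked out after their values were seen. Hbegf rose by 0.48 ± 0.12 (adjusted p = 0.0129), but not without zinc replicate 1 (0.45 ± 0.14, adjusted p = 0.0556), zinc replicate 3 (0.40 ± 0.14, adjusted p = 0.0680) or control replicate 2 (0.36 ± 0.12, adjusted p = 0.0514), and it was not called with zinc replicate 1 as the lone zinc library, as in the fit with the heart-transcript term (0.53 ± 0.17, adjusted p = 0.0604). Of 23 tested growth factor and hormone genes 7 rose, Pdgfa, a platelet-derived growth factor subunit, also among them (0.52 ± 0.08), and 4 fell, Inhbe with the largest change. The lower count was 1 without zinc replicate 1, zinc replicate 3 or control replicate 1 and 2 without control replicate 2 or with the heart-transcript term.

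Among 23 tested receptor tyrosine kinases 5 rose and 3 fell, with 3 higher with the heart-transcript term. Egfr, the epidermal growth factor receptor, had 5.71, 6.01 and 5.34 CPM in zinc-treated cells, against 7.61, 10.3 and 8.42 CPM in controls (log2 -0.63 ± 0.13, adjusted p = 0.00249). Ddr2, a collagen receptor, had 139, 165 and 137 CPM in zinc-treated cells, against 257, 248 and 221 CPM in controls (log2 -0.72 ± 0.10, adjusted p = 3.85e-05). Fgfr3 rose by 0.67 ± 0.11 and Epha2, an ephrin receptor, by 0.48 ± 0.09 on the log2 scale.

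Feedback genes of the MAP kinase pathway, which growth factor signals switch on and which then restrain them, were called higher in 8 of 21 cases and lower in 1, with a median of 0.23. Dusp5, a phosphatase of nuclear ERK, had 59.9, 49.0 and 54.1 CPM in zinc-treated cells, against 32.1, 32.0 and 33.5 CPM in controls (log2 0.75 ± 0.08, adjusted p = 1.94e-06). Ier3 had 104, 86.8 and 92.6 CPM in zinc-treated cells, against 59.5, 58.5 and 55.9 CPM in controls (log2 0.71 ± 0.08, adjusted p = 2.84e-06). Dusp1, another MAP kinase phosphatase, rose by 0.45 ± 0.07, Dusp14 by 0.71 ± 0.14, Phlda1 by 0.62 ± 0.12, the ERK inhibitors Spry4 and Spred2 by 0.56 ± 0.13 and 0.47 ± 0.08. With 1 library left out the higher count was 8 or 9. Immediate early genes, the first transcription factors to respond to a stimulus, were called in both directions, with 7 higher and 3 lower of 26. Fosl1, a partner of Jun in AP-1, had 111, 83.5 and 109 CPM in zinc-treated cells, against 65.7, 60.8 and 66.2 CPM in controls (log2 0.66 ± 0.10, adjusted p = 1.15e-04), and Maff, a small Maf protein, rose by 0.53 ± 0.07. Klf4 had 44.8, 47.5 and 42.3 CPM in zinc-treated cells, against 67.4, 76.5 and 59.6 CPM in controls (log2 -0.60 ± 0.08, adjusted p = 3.85e-05), opposite in direction. The higher count of immediate early genes was 3 without zinc replicate 1 or control replicate 1, and the lower count 1 without zinc replicate 1 or with the heart-transcript term.

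The BMP target genes Id1 and Id3 rose. The inhibitors of differentiation Id1 and Id3 are direct targets of BMP-activated Smads. Id1 had 70.8, 57.0 and 67.1 CPM in zinc-treated cells, against 39.5, 38.5 and 43.9 CPM in controls (log2 0.68 ± 0.09, adjusted p = 2.75e-05). Id3 had 296, 252 and 284 CPM in zinc-treated cells, against 161, 169 and 191 CPM in controls (log2 0.68 ± 0.08, adjusted p = 4.59e-06), and neither overlapped between the groups. Smad7, a feedback inhibitor of TGF-beta and BMP receptors, had 25.3, 19.3 and 23.7 CPM in zinc-treated cells, against 13.9, 13.8 and 15.8 CPM in controls (log2 0.67 ± 0.11, adjusted p = 2.63e-04). Of 28 tested genes of the TGF-beta and BMP list 8 rose and 0 fell. That higher count was 3 without control replicate 1, 4 without zinc replicate 1 and 5 without zinc replicate 2 or zinc replicate 3 or with the heart-transcript term, and 4 with library totals alone.

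In the Wnt list 7 of 27 genes rose and 0 fell, and the higher count was 4 without zinc replicate 1. The ligand gene Wnt4 had 15.1, 13.6 and 12.1 CPM in zinc-treated cells, against 5.58, 8.40 and 8.66 CPM in controls (log2 0.86 ± 0.13, adjusted p = 1.80e-04), and Wnt7b rose by 0.78 ± 0.15. In the Notch list 3 of 18 rose and 1 fell. Lfng, a glycosyltransferase that tunes Notch receptors, had 74.1, 64.0 and 75.9 CPM in zinc-treated cells, against 27.7, 38.2 and 41.3 CPM in controls (log2 1.0 ± 0.11, adjusted p = 4.62e-06), and the receptor gene Notch2 rose by 0.43 ± 0.06. The Hippo list, on the pathway that restrains the coactivator YAP, had 5 higher and 3 lower of 18. Ccn2, connective tissue growth factor and a YAP target, had 96.0, 122 and 109.7 CPM in zinc-treated cells, against 171, 210.2 and 189.5 CPM in controls (log2 -0.81 ± 0.10, adjusted p = 1.84e-05), while Sav1, a scaffold of the Hippo kinases, rose by 0.31 ± 0.07. Its higher count was 2 with the heart-transcript term and 3 without zinc replicate 1, zinc replicate 3 or control replicate 1, and its lower count 1 without control replicate 1 or with the heart-transcript term.

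Matrix-degrading proteases and their regulators rose more often than they fell, with 6 higher and 2 lower of 21. Mmp3 and Mmp10 encode stromelysins, which cut many matrix proteins. Mmp3 had 50.9, 34.8 and 26.5 CPM in zinc-treated cells, against 14.2, 15.02 and 14.6 CPM in controls (log2 1.39 ± 0.18, adjusted p = 6.25e-05), and Mmp10 had 8.72, 5.84 and 4.36 CPM in zinc-treated cells, against 2.19, 1.74 and 2.15 CPM in controls (log2 1.73 ± 0.28, adjusted p = 4.25e-04). Plaur, the urokinase receptor, had 19.1, 12.2 and 20.7 CPM in zinc-treated cells, against 8.48, 7.41 and 8.18 CPM in controls (log2 1.14 ± 0.14, adjusted p = 3.20e-05), and their inhibitor gene Timp1 rose by 0.51 ± 0.09. Adamts1, a protease that cleaves proteoglycans, went the other way, with 10.7, 10.2 and 12.9 CPM in zinc-treated cells, against 36.7, 26.6 and 23.8 CPM in controls (log2 -1.37 ± 0.14, adjusted p = 2.78e-06). The lower count was 1 without zinc replicate 1, zinc replicate 3 or control replicate 1 or with the heart-transcript term.

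The integrin gene Itga6 and the microtubule gene Map1a rose, and the actin-binding gene Cnn3 fell. The matrix and integrin list had 5 higher and 1 lower of 25, and the higher count was 1 with the heart-transcript term and 3 without zinc replicate 3 or control replicate 1. Its integrin gene Itga6, a laminin receptor subunit, had 541, 438 and 449 CPM in zinc-treated cells, against 316, 339.9 and 402 CPM in controls (log2 0.43 ± 0.09, adjusted p = 0.00340). The actin list had 7 higher and 4 lower of 28. Its higher count was 1 without control replicate 1 or with the heart-transcript term, 2 without zinc replicate 3 and 3 without zinc replicate 1, and its lower count 1 without control replicate 1 or with the heart-transcript term and 2 without zinc replicate 2, zinc replicate 3 or control replicate 3. Cnn3, the actin-binding calponin 3, had 274, 262 and 312 CPM in zinc-treated cells, against 494, 391.8 and 417 CPM in controls (log2 -0.62 ± 0.09, adjusted p = 8.08e-05). Tubulins and neuronal cytoskeleton genes had 7 higher and 3 lower of 24, with a higher count of 1 without zinc replicate 3 or with the heart-transcript term, 2 without control replicate 1 and 4 without zinc replicate 2 and a lower count of 1 without control replicate 1 or with the heart-transcript term. Map1a, a microtubule-associated protein, had 165, 164 and 176 CPM in zinc-treated cells, against 87.2, 119 and 111 CPM in controls (log2 0.66 ± 0.10, adjusted p = 1.59e-04).

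The chemokine genes Cxcl1 and Ccl2 rose, and the inflammatory caspase gene Casp4 and its relative Casp12 fell. Cxcl1, which attracts neutrophils, had 36.3, 26.7 and 33.5 CPM in zinc-treated cells, against 11.5, 12.7 and 15.9 CPM in controls (log2 1.28 ± 0.12, adjusted p = 7.69e-07). Ccl2, which attracts monocytes, had 11.5, 11.4 and 9.40 CPM in zinc-treated cells, against 5.16, 5.93 and 5.16 CPM in controls (log2 1.0 ± 0.22, adjusted p = 0.00482), and Ptgs2, the inducible cyclooxygenase, rose by 0.38 ± 0.09. Of 22 tested cytokine and NF-kB genes 6 rose and 2 fell, with 3 higher with the heart-transcript term. Casp4 had 3.24, 3.40 and 2.78 CPM in zinc-treated cells, against 29.4, 16.8 and 17.3 CPM in controls (log2 -2.74 ± 0.21, adjusted p = 1.45e-07), a 6.68-fold fall. Casp12, tied to the endoplasmic reticulum (ER) in rodents, had 5.68, 5.23 and 6.54 CPM in zinc-treated cells, against 24.6, 14.6 and 16.4 CPM in controls (log2 -1.67 ± 0.20, adjusted p = 1.86e-05). Nlrx1, a mitochondrial member of the NOD-like receptor family, had 52.9, 61.6 and 59.2 CPM in zinc-treated cells, against 120.3, 108 and 88.0 CPM in controls (log2 -0.87 ± 0.11, adjusted p = 1.70e-05). In the caspase and inflammasome list 4 of 21 fell and 2 rose. Among 24 interferon and antigen presentation genes 0 rose and 3 fell, with 1 lower without zinc replicate 1, and Irf3, a factor that turns on interferon genes, was at -0.43 ± 0.08 (adjusted p = 0.00124). The leukocyte genes Adgre1 and Ptprc were at 0 or near 0 in all 6 libraries, and the summed leukocyte list was 20.2 to 21.5 CPM after zinc and 17.9 to 23.0 CPM in controls. Most of that sum came from Cd14, at 15.3, 13.2 and 14.1 CPM after zinc and 11.5, 15.1 and 13.1 CPM in controls. Cd68 had 4.98, 7.14 and 4.51 CPM after zinc and 5.20, 6.78 and 5.27 CPM in controls.

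Herpud1 and Atf6, genes of the unfolded protein response in the ER, fell. Of 24 tested genes of ER stress and ER-associated degradation 4 fell and 0 rose, the median being 0.07. Herpud1, which helps remove misfolded ER proteins, had 67.5, 83.5 and 70.4 CPM in zinc-treated cells, against 175, 149.5 and 138 CPM in controls (log2 -1.07 ± 0.14, adjusted p = 6.60e-05). Atf6, one of the membrane-bound sensors, had 86.2, 78.4 and 75.3 CPM in zinc-treated cells, against 159, 126 and 116 CPM in controls (log2 -0.74 ± 0.10, adjusted p = 4.22e-05). With the heart-transcript term 1 gene of the list was higher and 2 were lower.

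Of the biosynthetic lists, purine and pyrimidine synthesis had 1 higher and 5 lower of 27, the lower count being 2 without zinc replicate 1 or control replicate 1. Mthfd1l, the mitochondrial enzyme that releases formate for purine synthesis, had 221, 194 and 214 CPM in zinc-treated cells, against 386, 334 and 326 CPM in controls (log2 -0.73 ± 0.07, adjusted p = 1.07e-06). Ribosome biogenesis had 1 higher and 4 lower of 31, with a median of -0.14 and a lower count of 0 without control replicate 1 or with the heart-transcript term, 2 without zinc replicate 1, zinc replicate 2 or zinc replicate 3 and 7 without control replicate 2. The tricarboxylic acid cycle list had 2 higher and 2 lower of 25, Pck2 among them.

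Growth arrest genes changed in both directions. Of 23 tested genes of the p53 and arrest list 7 fell and 4 rose. Gadd45a, a sensor of DNA damage and stress, had 118, 109 and 125 CPM in zinc-treated cells, against 335, 196 and 211 CPM in controls (log2 -1.07 ± 0.14, adjusted p = 8.23e-05), control replicate 1 being the highest. Its paralog Gadd45b had 21.1, 15.9 and 19.2 CPM in zinc-treated cells, against 10.4, 10.01 and 11.8 CPM in controls (log2 0.83 ± 0.12, adjusted p = 1.54e-04), in the opposite direction. Tp53inp1, which promotes arrest and autophagy, fell by 0.93 ± 0.18 and the cyclin kinase inhibitor gene Cdkn1b by 0.39 ± 0.06. The lower count was 3 with the heart-transcript term and 4 without zinc replicate 1 or control replicate 1. The cyclin genes Ccnd1 and Ccnd2, which start the cell cycle, differed in direction: Ccnd1 had 658, 566 and 619 CPM in zinc-treated cells, against 419, 470.2 and 510.1 CPM in controls (log2 0.40 ± 0.07, adjusted p = 8.91e-04), and Ccnd2 had 2.59, 1.92 and 2.03 CPM in zinc-treated cells, against 4.75, 3.87 and 3.85 CPM in controls (log2 -0.86 ± 0.15, adjusted p = 7.03e-04). Genes of mitosis had 2 higher and 0 lower of 25 and genes of DNA replication 2 higher and 3 lower of 29, with 1 lower without zinc replicate 2 or control replicate 1.

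Among 17 circadian clock genes 4 fell and 1 rose. Ciart, a repressor within the clock, had 5.97, 6.71 and 7.22 CPM in zinc-treated cells, against 15.6, 12.4 and 11.2 CPM in controls (log2 -1.0 ± 0.12, adjusted p = 1.19e-05), and Bmal1, a core activator, had 36.1, 35.9 and 39.4 CPM in zinc-treated cells, against 49.6, 46.9 and 46.1 CPM in controls (log2 -0.36 ± 0.07, adjusted p = 0.00206). Among 24 histone and chromatin modifiers 4 fell and 1 rose. The histone demethylase gene Kdm4a had 101, 105 and 104 CPM in zinc-treated cells, against 187, 159 and 148 CPM in controls (log2 -0.67 ± 0.07, adjusted p = 2.31e-06), and Kdm6b fell by 0.57 ± 0.11 (adjusted p = 0.00119). Sirt3, the main deacetylase of mitochondria, fell by 0.52 ± 0.11 (adjusted p = 0.00364).

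Calcium handling genes had 4 higher and 0 lower of 28. Itpr3, a calcium release channel of the ER, had 345, 381 and 326 CPM in zinc-treated cells, against 212, 282 and 237 CPM in controls (log2 0.52 ± 0.09, adjusted p = 3.37e-04), and Kcnn4, a calcium-activated potassium channel, had 63.7, 50.9 and 49.5 CPM in zinc-treated cells, against 28.3, 37.1 and 32.9 CPM in controls (log2 0.75 ± 0.11, adjusted p = 1.75e-04). Axon guidance genes had 1 higher and 3 lower of 22. Sema3a, a secreted repellent of axons, had 5.91, 5.23 and 5.56 CPM in zinc-treated cells, against 10.8, 12.1 and 10.98 CPM in controls (log2 -1.0 ± 0.14, adjusted p = 4.55e-05), and Efnb2, an ephrin, rose by 0.71 ± 0.16. Of 13 tested genes of the olfactory neuron list 3 rose and 1 fell, a higher count of 0 with the heart-transcript term and 1 without zinc replicate 3, control replicate 1, control replicate 2 or control replicate 3. The one that fell, the G protein subunit gene Gng8, had 3.66, 4.53 and 5.34 CPM in zinc-treated cells, against 9.27, 7.22 and 6.93 CPM in controls (log2 -0.84 ± 0.15, adjusted p = 7.28e-04). Cyp1b1, a target of the aryl hydrocarbon receptor, rose by 0.68 ± 0.10 and was the single call of 11 genes of that list, and Bid, which carries death signals to mitochondria, rose by 0.49 ± 0.08 as the single call of 12 tested genes of the Bcl-2 family.

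Several lists stood near or under the 17.2% of all genes called, so their counts are not read as results about the lists. Of the lists above, these were zinc and copper transport, ER stress, calcium handling, interferon, the tricarboxylic acid cycle and mitosis. DNA replication, ribosome biogenesis, the aryl hydrocarbon receptor, the Bcl-2 family, fatty acid synthesis and oxidation and axon guidance were further ones. Histone modifiers, the ubiquitin and ZFAND list, Notch and purine and pyrimidine synthesis lay little above the 17.2%, and their counts are not read so either. Splicing factors had 2 higher and 1 lower of 28, the mitochondrial ribosome 0 higher and 1 lower of 28 and the polyamine and methionine cycle 0 higher and 2 lower of 15. Autophagy and lysosome genes had 0 higher and 4 lower of 30, 2 lower with the heart-transcript term, among them Hexa, a subunit of a lysosomal hexosaminidase (-0.35 ± 0.08). Where a list had under 3 calls in a direction, that count stayed between 0 and 3 whichever library was left out. It reached 3 without control replicate 2 for higher genes of fatty acid oxidation and of mitosis and for lower chaperones and genes of the polyamine and methionine cycle, and without control replicate 3 for higher genes of the tricarboxylic acid cycle.

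**Figure D5:**
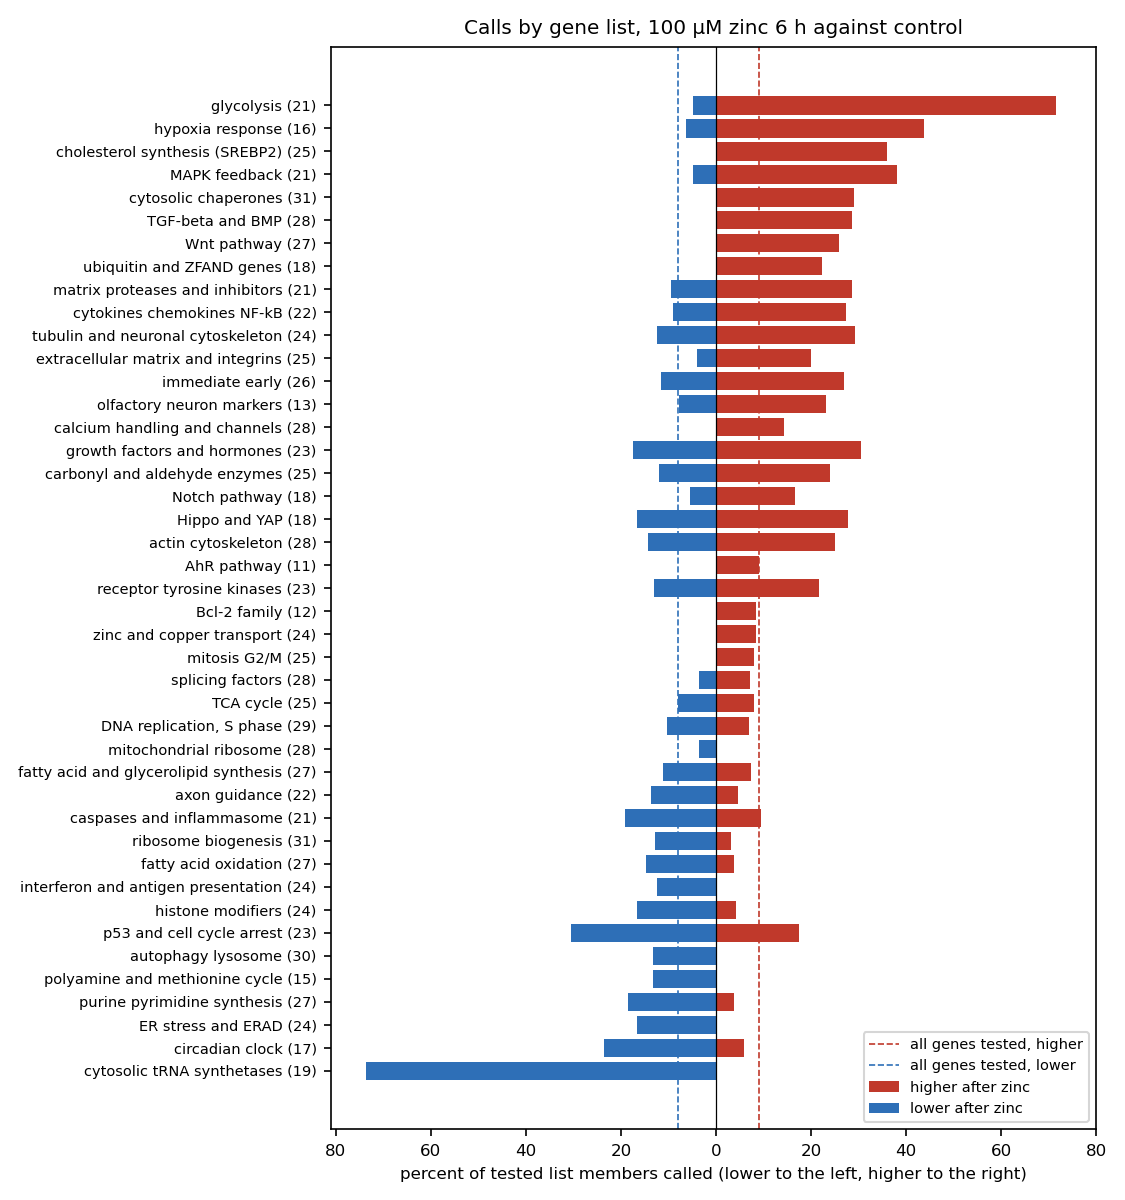
Share of the tested members of each of 43 lists called higher (right, red) and lower (left, blue) after zinc, with the number tested in parentheses and the shares over all genes tested (9.1% higher, 8.1% lower) as dashed lines. Glycolysis (15 of 21 higher) and the transfer RNA synthetases (14 of 19 lower) stand at either end, and most other lists lie nearer to the dashed lines.

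At 12 h of the same dose some of these genes stood closer to control and others did not differ from 6 h by the test. Over all genes tested, 0.974% differed between 12 h and 6 h. The genes were named for their values at 6 h, and the same 6 h libraries enter this difference, so the share of named genes that differ cannot be set against that percentage. Cars1 had 228, 226 and 208 CPM at 12 h, above the 3 libraries of 6 h (12 h minus 6 h 0.73 ± 0.06, adjusted p = 7.04e-07). Pck2 had 209.5, 210.3 and 195 CPM at 12 h (0.83 ± 0.09, adjusted p = 6.75e-05), between the 6 h libraries and the controls. Hspa8 had 4264, 4201 and 4072 CPM (-0.39 ± 0.06, adjusted p = 0.00220) and Zfand2a 115, 154 and 163 CPM (-0.58 ± 0.10, adjusted p = 0.00496), both under the libraries of 6 h. By contrast Ldha had 2152, 1802 and 1740 CPM (0.02 ± 0.09, adjusted p = 0.965) and Car9 84.4, 59.5 and 61.0 CPM (0.13 ± 0.11, adjusted p = 0.748), within or beside the range at 6 h. Slc30a1, at 76.1, 62.7 and 72.6 CPM, did not pass (-0.34 ± 0.08, adjusted p = 0.0652). Of 183 genes named by the rule 24 differed between both times.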

How the data were processed

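Counts of reads per gene were deposited by the authors as whole numbers for 15 libraries, identified by NCBI gene ID. Per the submitters' processing notes the tools were TopHat, DESeq, bcl2fastq and CASAVA 1.8 and the build was rn4, with no roles given. The sources used here do not give the read counter, the annotation or the strand setting. Of 16832 identifiers 16671 matched a symbol in RefSeq's table of GRCr8, used for names and promoter sequences. The 161 others, at 0.510% to 0.681% of the counts of a library, were kept, and 2758 genes were at 0 in every library.

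Differences were tested by the quasi-likelihood method of edgeR 4.0.16 (R 4.3.3, robust, TMM scaling) on all 15 libraries with group as the factor. The filterByExpr rule left 10575 genes, and p-values were adjusted over them by the Benjamini-Hochberg method. Ratios are log2 of zinc over control ± standard error with 3 libraries a group. The script was tested on simulated data.

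Genes are named by a rule: the 12 highest and 12 lowest ratios and the 8 largest rises and falls in CPM among called genes that averaged 20 counts or more and whose groups did not overlap, up to 4 called members of each list with the smallest adjusted p, and Mt1, Hmox1 and Asns. This gives 183 genes, and the text takes mostly those whose call held in 21 other fits. Other list members were named after their values were seen. A few list members are left unreported. Members and lists were chosen with earlier results of these data known. Among the 6 libraries compared, counts differed by more than sampling noise within each group (chi-square per degree of freedom of 5.02 to 19.6); the closer pairs across the labels of 24 h and 200 µM were kept in the shared spread. RefSeq promoters were found for 8620 of 10575 genes, and motifs were searched on both strands.

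Other fits used DESeq2 1.42.0, limma-voom (limma 3.58.1), other scalings and filters, thinning to the smallest total, left-out libraries, a replicate block and the heart-transcript term.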

Additional observations from a re-analysis of the deposited data

Results flagged for a closer look

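For 24 of the 183 genes named by the rule the effect of 100 µM zinc differed between times, by edgeR's test of 12 h minus 6 h, given here as log2 differences. Of all genes tested 0.974% passed this test. The genes were named for their values at 6 h, and the same 6 h libraries enter the difference, so part of a move toward control can come from that choice.

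Among genes lower than control at 6 h, the difference was positive at 12 h. The largest were in Angptl8 (2.11 ± 0.49, adjusted p = 0.0458), Extl1 (1.02 ± 0.19, adjusted p = 0.0102), Otub2 (0.93 ± 0.19, adjusted p = 0.0208), Asns (0.96 ± 0.10, adjusted p = 1.87e-05) and Pck2 (0.83 ± 0.09, adjusted p = 6.75e-05), the last the mitochondrial phosphoenolpyruvate carboxykinase gene. The transfer RNA synthetase genes followed, with Cars1 (0.73 ± 0.06, adjusted p = 7.04e-07), Mars1 (0.63 ± 0.08, adjusted p = 1.32e-04), Lars1 (0.52 ± 0.08, adjusted p = 8.69e-04), Eprs1 (0.49 ± 0.11, adjusted p = 0.0401) and Aars1 (0.49 ± 0.06, adjusted p = 1.49e-04). The others were Mthfd1l (0.38 ± 0.07, adjusted p = 0.00984), Kdm4a (0.34 ± 0.07, adjusted p = 0.0229) and H3f3b (0.34 ± 0.08, adjusted p = 0.0458).

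Among genes higher than control at 6 h, the difference was negative at 12 h. Stress genes were Hmox1 (-2.38 ± 0.11, adjusted p = 2.60e-10), Akr1b10 (-0.45 ± 0.11, adjusted p = 0.0494), Zfand2a (-0.58 ± 0.10, adjusted p = 0.00496) and Hspa8 (-0.39 ± 0.06, adjusted p = 0.00220). The paralogs of Akr1b10, Akr1b7 (-0.43 ± 0.11, adjusted p = 0.0829) and Akr1b8 (-0.39 ± 0.11, adjusted p = 0.106), had similar differences and did not pass. Signalling and cytokine genes were Cxcl1 (-0.61 ± 0.12, adjusted p = 0.0176), Ptgs2 (-0.61 ± 0.09, adjusted p = 8.75e-04), Ier3 (-0.54 ± 0.08, adjusted p = 7.06e-04), Fosl1 (-0.44 ± 0.10, adjusted p = 0.0406) and Maff (-0.35 ± 0.07, adjusted p = 0.0176), and the glucose transporter and Notch receptor genes were Slc2a1 (-0.41 ± 0.08, adjusted p = 0.0202) and Notch2 (-0.35 ± 0.06, adjusted p = 0.00677). Ptgs2 had 44.4, 41.8 and 41.2 CPM in controls, 59.0, 54.2 and 51.6 CPM at 6 h and 31.4, 35.0 and 41.8 CPM at 12 h.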

How the results depend on the processing

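Over the 21 other settings the number of called members ran from 787 to 2584, against 1766 as reported. The heart-transcript term gave 885 changed, 500 higher and 385 lower, and replicate 1 of 6 h alone against the controls 787 changed, 443 higher and 344 lower; both fits estimate the same contrast, with 1 zinc library. With 1 library left out the fit called 978 to 1725 genes, 519 to 960 higher and 459 to 765 lower, and the number changed moved by over 1.5 times without control replicate 1 (978), zinc replicate 1 (1155) or zinc replicate 3 (1160). Asking for 50 counts in 3 libraries left 73 genes with a log2 ratio of at least 1, against 121. Scaling by library totals gave 758 higher and 1038 lower, against 940 and 826. Of 6095 values of 291 genes under these settings, 5426 kept their call, 669 kept their direction but passed the threshold no longer and 0 reversed.

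The replicate numbers were not read as pairs: the deviations of libraries with the same number correlated across genes at 0.111, 0.393 and 0.05, and 3 of 6 libraries correlated best with their own number. With the replicate block the fit called 2584 genes on the 6 libraries and 2508 on all 15. On the 6 libraries the block ended 5 calls among the 291 genes, Ccdc80 among them (adjusted p = 0.0632). The zinc-treated libraries 2 and 3 had the lowest depth, 10.3 and 12.2 M, which limits what can be seen among genes of low level.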
